A study of Mus musculus with 6 samples.

Results

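Assembly factors of the respiratory chain are proteins that help to build complexes I to V of the mitochondrial inner membrane and do not remain in the finished enzymes. The 52 genes described here were listed from knowledge of these proteins, matched by symbol to the Ensembl identifiers of the deposited table (GENCODE, GRCm38) and grouped by the complex they serve. All 52 were among the 22310 genes of the table: 15 for complex I, 4 for complex II, 6 for complex III, 24 for complex IV and 3 for complex V. Every member had a value above 0 in all 6 libraries, from 34 reads for Lyrm7 to 6604 reads for Lrpprc in a single library.

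The libraries were made from mRNA of tumor cells of MMTV-PyMT mice, a model in which the mouse mammary tumor virus promoter drives the polyoma middle T antigen in mammary epithelium. MICs are the metastasis-initiating cells of these tumors, sorted as Lin−CD24+CD90+, and the non-MICs of the same tumor model were sorted as Lin−CD24+CD90−. Each population had 3 libraries, numbered 1 to 3, and the question of the comparison is how gene expression differs between the sorted populations. The other stated conditions were common to both populations: the MMTV-PyMT transgene (genotype labelled WT otherwise), the FVB/N background, mice used at 12 to 18 weeks of age, medium of DMEM/F12 with 2% FBS, insulin, hEGF and penstrep, no added agent, and sorting 1 day after plating. A figure legend of the study counts these populations as n = 3, meaning experiments or tumors that were independent of each other, without saying which of the 2 it was here or how many mice went into a library. The deposited values are read counts scaled to 35000000 per library (between 34999999 and 35000001). Whole reads recovered from them numbered 32458499, 31467281 and 51759769 in MIC libraries 1, 2 and 3 and 33069114, 33126717 and 49904738 in nonMIC libraries 1, 2 and 3.

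Complexes I, III and IV pump protons while passing electrons to oxygen, complex II feeds electrons in from succinate, and complex V uses the proton gradient to make ATP. Most of their subunits are encoded in the nucleus and imported, while the core subunits of complexes I, III, IV and V that mitochondrial DNA encodes are made inside the organelle, and assembly factors stabilize intermediates, insert iron-sulfur clusters, flavin, heme and copper, and join finished modules. Loss of single factors causes inherited deficiency of the matching complex, and mammary tumor cells, like most cells, use the chain for ATP and for recycling of electron carriers.

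The sort was visible in the gate genes. Thy1, which encodes CD90, had 1509, 301 and 755 in MIC libraries 1, 2 and 3 and 16.9, 21.1 and 12.6 in nonMIC libraries 1, 2 and 3 (deposited values). The groups did not overlap for Thy1, and MIC library 2 was the lowest of the MIC libraries. Cd24a, which encodes the antigen common to both gates, had 11309, 19406 and 17276 in MIC libraries 1, 2 and 3 and 14009, 14882 and 18754 in nonMIC libraries 1, 2 and 3, and the groups overlapped. The luminal markers Epcam and Krt8 were abundant in every library, with Epcam between 9712 and 23771 and Krt8 between 81339 and 293659. Markers of the lineages that the gate excludes were read little. Ptprc, the pan-leukocyte marker, had between 0 and 14 reads in a library, and Pecam1, the endothelial marker, between 5 and 18. Of the blood markers, 3 of 5 were in the table and their summed value was between 0 and 31.1; of the red cell markers, 0 of 3 were in the table.

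Basal or myoepithelial markers (5 of 5 in the table, none at 0) were read in every library, with summed values of 293583, 7805 and 33731 in MIC libraries 1, 2 and 3 and 74564, 6649 and 22099 in nonMIC libraries 1, 2 and 3. The MIC library was the higher one in each pair, by 1.98, 0.23 and 0.61 (log2 of the sums), and 4 of the 5 genes were higher there in every pair. Acta2 (2.25, 2.38 and 2.64), Myh11 (2.39, 2.25 and 3.09) and Krt5 (3.45, 2.04 and 1.20) were higher in the MIC library of pairs 1, 2 and 3 and passed limma with the replicate block (adjusted p 3.12e-05, 6.28e-05 and 0.0121, each 0.999992 without it), and Trp63 (1.91, 0.57 and 0.47) passed in edgeR with the block (adjusted p 0.00182), not in limma (0.353) or DESeq2 (0.0617). Krt14, the exception, had differences of 0.50, -0.90 and 0.11. The 5 luminal markers, most of whose sum was Krt8 and Krt18, summed to 559037, 193886 and 407830 in the MIC libraries and 654922, 255871 and 386182 in the nonMIC libraries, none at 0. The MIC sum was the lower one in pairs 1 and 2 but not in pair 3. Elf5, also a luminal marker, was lower in the MIC library of every pair (-1.31, -0.93 and -1.04), with an adjusted p of 0.139 in limma, 0.000449 in edgeR and 0.00253 in DESeq2 with the block. Fibroblast markers (5 of 5) summed to between 451 and 1235, endothelial markers (5 of 5) to between 15.9 and 51.8, and pericyte markers (3 of 3) to between 40.7 and 243.7. The sums hide differences between their genes. The log2 differences of the sums were -0.04, -0.35 and 1.45 for fibroblast, 0.08, 0.31 and 2.18 for pericyte and 1.64, 0.24 and -0.46 for endothelial markers in pairs 1, 2 and 3. The pericyte marker Cspg4 (1.71, 1.46 and 2.78) and the fibroblast marker Dcn (1.14, 0.33 and 3.24) were higher in the MIC library of every pair and passed in edgeR with the block (adjusted p 0.000684 and 0.0152), not in limma (0.228 and 0.418) or DESeq2 (0.0564 and 0.251). The fibroblast markers Col1a1 (-0.19, -0.62 and 1.65) and Col3a1 (-0.36, -0.33 and 2.67) were lower in the MIC library of pairs 1 and 2. The pericyte marker Pdgfrb (-0.15, 0.17 and 1.87) was lower there in pair 1. Pdgfra, Lum and Rgs5 were higher in every pair and did not pass in these tools with the block. In nonMIC library 2 the fibroblast marker Lum and the endothelial marker Emcn were at 0, and in nonMIC library 3 the pericyte marker Rgs5 was. The part of these cell types in the differences of the assembly factors was not tested, and in bulk RNA fewer cells of a type and less RNA per cell cannot be told apart.

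No assembly factor passed limma's test of MIC against nonMIC, with or without a replicate block, and 1, Tmem70, passed in edgeR and DESeq2 with that block. Means of the pair differences are given below with the standard error (SE) of limma without the block (3 libraries per population). This SE does not use the pairing and was larger than that with the block, at 0.75 against 0.25 for Coa6 and 0.28 against 0.21 for Tmem126a. As deposited, the members were mostly higher in the MIC library of pairs 1 and 2 and not in that of pair 3. In limma without a replicate block, 0 of the 52 members had an adjusted p under 0.05, against 0.0% of all genes, and the adjusted p of each member was 0.999992. At an unadjusted p under 0.05 the same fit held 0 members, against 1.44% of all genes (322 of 22310). The count-based tools were read next to it. On recovered reads without a block, edgeR called 0 members (0.0% of all genes) and DESeq2 called 0 (0.00452% of all genes, 1 of 22134). At an unadjusted p under 0.05 those tools had 1 member (Tmem126a) against 1.32% of genes and 3 members (Tmem126a, Ndufaf6 and Coa4) against 1.2% of genes, all higher in MICs.

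Same-numbered libraries varied together, so the fit with the replicate number as a block was read beside the first. With the block limma again called 0 members, against 0.13% of all genes (29 of 22310), and the smallest adjusted p of a member was 0.286, for Tmem70. At an unadjusted p under 0.05 it held 10 members (19.2%) as higher in MICs, against 5.24% of all genes, and 0 as lower, against 5.97%. These 10 were Tmem126a, Ndufaf4, Ndufaf5 and Ndufaf6 of complex I, Sdhaf2 of complex II, Cox19, Coa6, Coa4 and Higd1a of complex IV, and Tmem70 of complex V. Once a trend in GC content and exonic length had been taken out of each library (GC and length adjustment), the same fit called 0 members and held 7 as higher (against 5.14% of all genes) and 1, Cox20, as lower (against 5.31%) at an unadjusted p under 0.05. The 4 complex I members and Coa6 were then no longer among them, Sdhaf2, Cox19, Coa4, Higd1a and Tmem70 were, and Ndufaf2 and Cox17 were new. With the block, edgeR called 1 member, Tmem70 (1.41% of all genes, 315 of 22310), and DESeq2 called the same 1 (0.889% of genes, 133 of 14957). At an unadjusted p under 0.05 those blocked fits held 16 members (30.8%) and 15 members (28.8%) as higher, against 5.89% and 5.12% of all genes, and 0 as lower, against 5.85% and 3.46%.

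The median difference over the 52 members, MIC minus nonMIC on log2(value + 1), came to 0.31 for pair 1, 0.43 for pair 2 and -0.06 for pair 3. Over all genes of the table the medians were -0.02, 0.04 and -0.05, and over the 11155 genes above the median level they were -0.09, -0.04 and -0.05. In pair 3 the members' median moved to about 0 under other scalings, at 0.00 with TMM factors and 0.01 after quantile normalization. After the GC and length adjustment the 3 medians were 0.08, 0.15 and -0.02, against -0.10, -0.03 and -0.01 over all genes, so the shift in pairs 1 and 2 was smaller. The mean of the 3 pair differences had a median of 0.19 over members and -0.04 over all genes. It kept its direction but was smaller, at 0.04, after that adjustment. That adjustment turned the mean differences of Ndufaf1 (-0.13), Uqcc3 (-0.04), Cox11 (-0.06), Cox14 (-0.05), Cox20 (-0.40), Higd2a (-0.04) and Atpaf1 (-0.07) below 0, and differences printed below are as deposited unless another scaling is named.

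Counted by gene, 41 members (78.8%) were higher in the MIC library of pair 1, 37 (71.2%) in pair 2 and 17 (32.7%) in pair 3. The matching shares of all genes were 45.2%, 53.5% and 35.8%. These counts depended on the scaling. With TMM factors they were 42, 34 and 28 (47.0%, 44.0% and 51.1% of all genes), after quantile normalization 42, 35 and 27 (51.8%, 44.8% and 46.2%), and with the GC and length adjustment 32, 29 and 22 (43.0%, 47.7% and 47.6%). A MIC library was higher in all 3 pairs for 12 members (23.1%), against 12.5% of all genes. It was lower in all 3 for 7 members (13.5%), against 18.8% of all genes. With TMM factors the 2 counts were 16 and 3, against 3284 and 3668 of the 22310 genes of the table. With the GC and length adjustment they were 10 and 8, against 3096 and 4322 of these genes. Under each of these scalings and quantile normalization, Tmem126a, Tmem126b, Ndufaf4, Ndufaf5, Ndufaf6, Sdhaf2, Coa4, Higd1a and Tmem70 stayed higher in all 3 pairs and Sco1 stayed lower. The groups did not overlap for 4 members higher in MICs (Tmem126a, Ndufaf6, Sdhaf2 and Coa4), against 2.69% of all genes, and for 1 lower (Cox15), against 3.55%. Most members had overlapping groups. The mean log2 value over all members was 9.45, 9.61 and 8.91 in MIC libraries 1, 2 and 3 and 9.18, 9.18 and 8.97 in nonMIC libraries 1, 2 and 3, so library 3 was the lowest of each population. The number 3 libraries were also the most deeply read, and the part of depth in this was not tested.

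**Figure D1:**
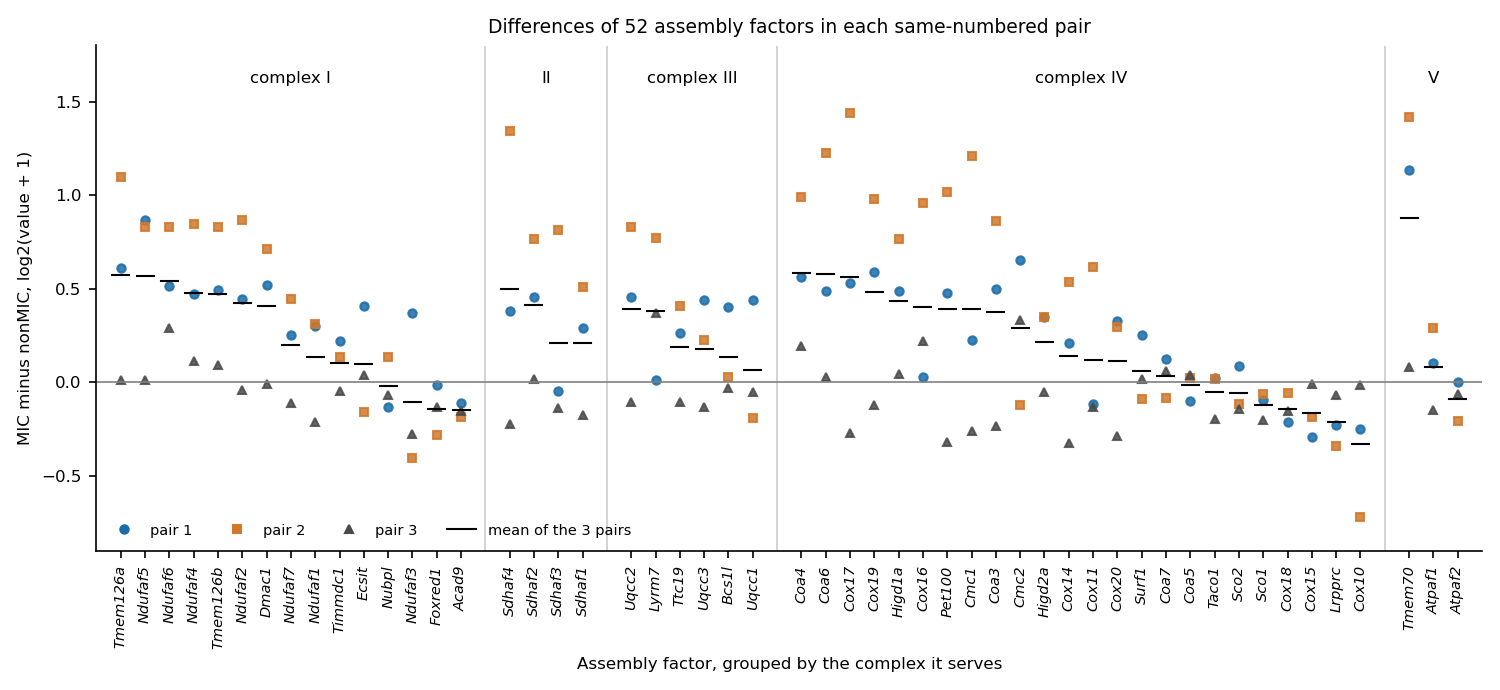
Difference MIC minus nonMIC on log2(value + 1) (y axis) of each of the 52 assembly factors (x axis, grouped by complex and ordered by mean) in pair 1 (circles), pair 2 (squares) and pair 3 (triangles), with the mean of the 3 pairs as a bar. Members were higher in the MIC library for 41 genes in pair 1, 37 in pair 2 and 17 in pair 3 as deposited, and for 42, 34 and 28 with TMM factors and 32, 29 and 22 with the GC and length adjustment.

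Complex I, the NADH dehydrogenase, had 15 factors with median differences of 0.41, 0.45 and -0.04 in pairs 1, 2 and 3 and a median mean difference of 0.20, pair 3 being at 0.03 with TMM factors. With the GC and length adjustment they were smaller, at 0.17, 0.13 and 0.00 with a median mean difference of 0.08. A MIC library was higher in all 3 pairs for 5 of them (33.3%, against 12.5% of all genes). It was lower in all 3 for 2 (13.3%, against 18.8%). With TMM factors or quantile normalization these counts were 8 and 1. The matching counts of all 22310 genes were 3284 and 3668 with TMM factors and 3413 and 3671 after quantile normalization. The early membrane intermediate of complex I is built by the MCIA module, to which Ndufaf1, Ecsit, Acad9 and Tmem126b belong. Tmem126b had 485, 475 and 228 in MIC libraries 1, 2 and 3 and 345, 266 and 214 in nonMIC libraries 1, 2 and 3. Its MIC library was the higher of each pair, but MIC library 3 was below nonMIC libraries 1 and 2, so the groups overlapped. The pair differences were 0.49, 0.83 and 0.09, with a mean of 0.47 ± 0.39 (SE), 0.29 to 0.83 with 1 library left out and 0.26 after the GC and length adjustment. The other MCIA members had mean differences of 0.13 (Ndufaf1), 0.10 (Ecsit) and -0.15 (Acad9). Acad9, which also has acyl-CoA dehydrogenase activity, had differences of -0.11, -0.18 and -0.15, with pair 1 at 0.13 after the GC and length adjustment.

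Tmem126a, a paralog of Tmem126b that acts on the membrane arm, had 1333, 1865 and 974 in MIC libraries 1, 2 and 3 and 873, 871 and 966 in nonMIC libraries 1, 2 and 3. All MIC values were above all nonMIC values, although MIC library 3 was barely so. Its pair differences were 0.61, 1.10 and 0.01, with a mean of 0.57 ± 0.28 (SE), 0.34 to 0.80 with 1 library left out and 0.29 after the GC and length adjustment. The paralogs (ENSMUSG00000030615, chr7:90450700-90457229, minus strand, and ENSMUSG00000030614, chr7:90467438-90476001, minus strand) lie 10208 bases apart, and neither shares exonic bases with another annotated gene. Dmac1, which acts on the distal part of the membrane arm, and Timmdc1, which acts on an early membrane intermediate, had mean differences of 0.41 and 0.10, near 0 in pair 3 in both cases (-0.01 and -0.05).

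The Q module, where ubiquinone is reduced, is assembled with Ndufaf3, Ndufaf4 and Ndufaf6 and modified by Ndufaf5 and Ndufaf7. Ndufaf4 had 1476, 1829.7 and 1001 in MIC libraries 1, 2 and 3 and 1066, 1016 and 926 in nonMIC libraries 1, 2 and 3. MIC library 3 lay below nonMIC libraries 1 and 2, so the groups overlapped, and the pair differences were 0.47, 0.85 and 0.11, with a mean of 0.48 ± 0.27 (SE), 0.28 to 0.71 with 1 library left out and 0.21 after the GC and length adjustment. Ndufaf5, a hydroxylase of the subunit Ndufs7, had 543, 775 and 334 in MIC libraries 1, 2 and 3 and 297, 436 and 331 in nonMIC libraries 1, 2 and 3. The groups overlapped, MIC library 3 being level with nonMIC library 3 and below nonMIC library 2. The differences of Ndufaf5 were 0.87, 0.83 and 0.01, with a mean of 0.57 ± 0.37 (SE), 0.28 to 0.89 with 1 library left out and 0.29 after the GC and length adjustment.

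Ndufaf6 had 289, 288 and 282 in MIC libraries 1, 2 and 3 and 202, 162 and 231 in nonMIC libraries 1, 2 and 3. The MIC libraries were almost level with each other and all above the nonMIC libraries, and pair 3 had the smallest difference. The differences were 0.51, 0.83 and 0.29, with a mean of 0.54 ± 0.30 (SE), 0.41 to 0.66 with 1 library left out and 0.34 after the GC and length adjustment. Ndufaf6 (ENSMUSG00000050323, chr4:11051045-11076205, minus strand) shares no exonic bases with another gene. Ndufaf3 went the other way in pairs 2 and 3, with differences of 0.37, -0.40 and -0.28. Ndufaf7 had a mean difference of 0.20.

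Among the factors of iron-sulfur delivery and late assembly, Ndufaf2, which binds a late intermediate of the peripheral arm, had differences of 0.45, 0.87 and -0.04 in pairs 1, 2 and 3. Nubpl, an iron-sulfur protein that delivers clusters to complex I, was close to 0 in its mean difference (-0.02). Foxred1, a factor of late assembly, had differences of -0.01, -0.28 and -0.13, that of pair 1 turning to 0.03 with TMM factors, 0.09 after quantile normalization and 0.04 with the GC and length adjustment. With the GC and length adjustment the means were 0.08 for Dmac1, 0.01 for Timmdc1, 0.06 for Ndufaf7, 0.17 for Ecsit, -0.03 for Acad9, -0.09 for Foxred1 and -0.14 for Nubpl. The median of the complex I factors, 0.20 over all libraries, was 0.55 without MIC library 3.

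Complex II, succinate dehydrogenase, is the complex without mitochondrially encoded subunits, and its 4 factors all had a mean difference above 0. Their medians were 0.33, 0.79 and -0.15 in pairs 1, 2 and 3, and the median of their mean differences was 0.31. After the GC and length adjustment the medians were 0.01, 0.46 and -0.09, and that of the mean differences was 0.14. As deposited, the median difference over these factors was 0.06 without MIC library 2 and 0.49 without MIC library 3. Sdhaf2, which is needed for attachment of flavin to the subunit Sdha, had 1829.9, 2693 and 1607 in MIC libraries 1, 2 and 3 and 1333, 1586 and 1587 in nonMIC libraries 1, 2 and 3. All MIC values were above all nonMIC values, MIC library 2 was the highest, and MIC library 3 exceeded nonMIC libraries 2 and 3 by little. The differences were 0.46, 0.76 and 0.02, with a mean of 0.41 ± 0.25 (SE), 0.20 to 0.57 with 1 library left out and 0.35 after the GC and length adjustment. Sdhaf2 (ENSMUSG00000024668, chr19:10500534-10526142, minus strand) shares 94 of its 7195 exonic bases with Cpsf7 on the opposite strand.

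Sdhaf4, which helps Sdha join Sdhb, had differences of 0.38, 1.34 and -0.22, high in pair 2 and below 0 in pair 3, and with the GC and length adjustment pair 1 was at -0.15 and the mean went from 0.50 to 0.11. Sdhaf1 and Sdhaf3, which serve the iron-sulfur subunit Sdhb, had mean differences of 0.21 and 0.21, with 0.01 for Sdhaf3 after that adjustment, and Sdhaf1 was below 0 in pair 3 (-0.17). Sdhaf3 was below 0 in pairs 1 and 3, with differences of -0.05, 0.82 and -0.14. Sdhaf1 shares 1733 of its 2490 exonic bases with E130208F15Rik on the opposite strand, a gene with 71 reads over all libraries.

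Complex III, the cytochrome bc1 complex, had 6 factors, all with a mean difference above 0 as deposited (Uqcc3 was at -0.04 with the GC and length adjustment). Their medians were 0.42, 0.32 and -0.08 in pairs 1, 2 and 3, and the median of their mean differences was 0.18. After the GC and length adjustment the medians were 0.16, 0.07 and -0.02, and that of the mean differences was 0.10. As deposited, the median difference over these factors was -0.01 without MIC library 2 and 0.40 without MIC library 3. Uqcc1, Uqcc2 and Uqcc3 act on cytochrome b, and Bcs1l, Lyrm7 and Ttc19 on the Rieske iron-sulfur protein. Lyrm7, a chaperone of the Rieske protein and the lowest member in reads, had 99.2, 211 and 31.1 in MIC libraries 1, 2 and 3 and 98.4, 124 and 23.8 in nonMIC libraries 1, 2 and 3. Both number 3 libraries were far below the rest, and the groups overlapped. The differences were 0.01, 0.77 and 0.37 with a mean of 0.38 ± 0.88 (SE), and the sign turned to -0.25 without MIC library 2 and -0.34 without nonMIC library 3. The difference of pair 1 was -0.08 after quantile normalization. The depth of Lyrm7 ranged from 34 to 190 reads in a library, which makes it the member with the largest counting error.

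Bcs1l, the AAA protein that inserts the Rieske protein, was higher in the MIC library of pair 1 by 0.40 and near 0 in pairs 2 and 3. Ttc19, which clears fragments of the Rieske protein, had a mean difference of 0.19. Among the cytochrome b factors, Uqcc2 had differences of 0.45, 0.83 and -0.11, Uqcc3 0.44, 0.23 and -0.13 and Uqcc1 0.44, -0.19 and -0.05. After the GC and length adjustment the means were 0.09 for Bcs1l, 0.11 for Ttc19, 0.20 for Uqcc2 and 0.02 for Uqcc1.

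Complex IV, cytochrome c oxidase, had the most factors, 24. Their medians were 0.22, 0.32 and -0.09 in pairs 1, 2 and 3, and the median of their mean differences was 0.13. With the GC and length adjustment the medians were -0.04, 0.01 and -0.06, and that of the mean differences was -0.01. As deposited, the median difference over these factors was 0.03 without MIC library 2 and 0.28 without MIC library 3. A MIC library was higher in all 3 pairs for 4 factors (Coa4, Coa6, Cox16 and Higd1a), or 16.7%, against 12.5% of all genes. It was lower in all 3 for 5 (Cox10, Cox15, Sco1, Cox18 and Lrpprc), or 20.8%, against 18.8%. With TMM factors these counts were 5 and 2, against 3284 and 3668 of all 22310 genes. With the GC and length adjustment they were 2 and 4, against 3096 and 4322.

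Heme A, the prosthetic group found in this complex, is made by Cox10 and Cox15. Cox10, the farnesyltransferase of the pathway, had 705, 466 and 1004 in MIC libraries 1, 2 and 3 and 837, 769 and 1014 in nonMIC libraries 1, 2 and 3. The MIC library was the lower one in pairs 1 and 2, and the groups overlapped. The differences were -0.25, -0.72 and -0.01, with a mean of -0.33 ± 0.32 (SE), -0.60 to -0.04 with 1 library left out and -0.23 after the GC and length adjustment. Cox10 (ENSMUSG00000042148, chr11:63962627-64079468, minus strand) shares 49 of 3037 exonic bases with an antisense gene. Cox15, the next enzyme, had differences of -0.29, -0.19 and -0.01 and groups that did not overlap, the lowest nonMIC value (1180.3) being just above the highest MIC value (1179). The sign of both genes in pair 3 depended on the scaling, at 0.06 for Cox10 and 0.06 for Cox15 with TMM factors, 0.06 and 0.06 after quantile normalization and 0.05 and 0.05 with the GC and length adjustment.

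Copper is delivered to the complex through Cox17, Cox19, Cox11, Sco1, Sco2 and Coa6, whose median differences were 0.29, 0.80 and -0.14 in pairs 1, 2 and 3 (-0.01 and 0.49 in pairs 1 and 2 with the GC and length adjustment). Coa6 had 515, 801 and 123 in MIC libraries 1, 2 and 3 and 367, 342 and 121 in nonMIC libraries 1, 2 and 3. Both number 3 libraries were far below the rest, MIC library 2 was the highest, and the groups overlapped. The differences were 0.49, 1.22 and 0.03 with a mean of 0.58 ± 0.75 (SE), 0.03 to 1.37 with 1 library left out and 0.21 after the GC and length adjustment, which also put pair 1 at -0.04. Coa6 (ENSMUSG00000051671, chr8:126422515-126425433, plus strand) shares 105 of 747 exonic bases with Tarbp1 on the opposite strand. Cox17, the copper chaperone of the intermembrane space, had differences of 0.53, 1.44 and -0.27, and Cox19, a related twin Cys-motif protein, 0.59, 0.98 and -0.12. For both the sign in pair 3 was opposite to that in pairs 1 and 2.

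The paralogs Sco1 and Sco2, which pass copper to the subunit encoded by mt-Co2, had mean differences near 0. Sco1 had 549, 476 and 563 in MIC libraries 1, 2 and 3 and 586, 498 and 649 in nonMIC libraries 1, 2 and 3. The MIC library was the lower one in each pair, and the groups overlapped. Its differences were -0.10, -0.06 and -0.20, with a mean of -0.12 ± 0.24 (SE), -0.22 to -0.03 with 1 library left out and -0.31 after the GC and length adjustment. Sco2 had 127, 219 and 143 in MIC libraries 1, 2 and 3 and 119.6, 238 and 158 in nonMIC libraries 1, 2 and 3. Library 2 was the highest of each population and the groups overlapped. Its mean difference was -0.06 ± 0.42 (SE), and it was above 0 without MIC library 1 (0.10), without nonMIC library 2 (0.20) or without MIC library 3 (0.02). Sco2 (ENSMUSG00000091780, chr15:89371637-89373846, minus strand) shares 856 of 1253 exonic bases with Tymp on the same strand and 829 with Ncaph2 on the opposite strand, a gene with 38829 reads over all libraries against 1089 for Sco2, so its values are uncertain. Sco1 (ENSMUSG00000069844, chr11:67052670-67067070, plus strand) shares none. Cox11, which places copper in the subunit of mt-Co1, had differences of -0.12, 0.61 and -0.13 and shares 688 of 1423 exonic bases with Tom1l1 on the opposite strand.

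The module around the subunit of mt-Co1 is built with Cox14, Coa3, Surf1 and Cmc1, whose medians were 0.24, 0.70 and -0.25 in pairs 1, 2 and 3 (-0.01 and 0.43 in pairs 1 and 2 with the GC and length adjustment). Cmc1 had the widest differences of these (0.22, 1.21 and -0.26), followed by Coa3 (0.50, 0.86 and -0.23) and Cox14 (0.21, 0.54 and -0.33). Surf1 was near 0 in its mean difference (0.06). After the GC and length adjustment Cmc1 turned to -0.27 in pair 1 and its mean went from 0.39 to 0.03, that of Coa3 from 0.38 to 0.20. Taco1, the translational activator of mt-Co1, and Lrpprc, which stabilizes mitochondrial mRNAs and is among the most read members, had mean differences of -0.05 and -0.21. Lrpprc had differences of -0.23, -0.34 and -0.07, with pair 3 at 0.00 with TMM factors and pair 1 at 0.00 with the GC and length adjustment, which gave means of -0.11 for Lrpprc and -0.14 for Taco1.

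Of the factors for the mt-Co2 module, Cox16 had differences of 0.03, 0.96 and 0.22, Cox18, the translocase of the protein's C-terminal part, -0.21, -0.06 and -0.15, and Cox20, its chaperone, 0.33, 0.30 and -0.29. Cox16 had between 37 and 204 reads in a library and shares 2130 of 3751 exonic bases with Gm20498 on the same strand. Cox20 shares 804 of 883 exonic bases with Hnrnpu on the opposite strand, a gene with 180184 reads over all libraries against 2327 for Cox20. With the GC and length adjustment Cox16 was at -0.26 in pair 1 (mean 0.08), Cox18 at 0.02 in pair 2 and Cox20 at -0.31, -0.63 and -0.26, below 0 in all 3 pairs. The values of Cox16 and Cox20 are uncertain because of the shared bases.

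Coa4, a twin Cys-motif protein of the intermembrane space, had 204, 238 and 176 in MIC libraries 1, 2 and 3 and 138, 119 and 154 in nonMIC libraries 1, 2 and 3. All MIC values were above all nonMIC values, and library 3 had the smallest difference. The differences were 0.56, 0.99 and 0.19 with a mean of 0.58 ± 0.33 (SE), and Coa4 (ENSMUSG00000044881, chr7:100537071-100540369, plus strand) shares no exonic bases with another gene. The related proteins Cmc2 and Coa5 had differences of 0.65, -0.12 and 0.33 and -0.10, 0.02 and 0.04, the mean of Cmc2 going from 0.29 to 0.17 with the GC and length adjustment.

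Higd1a, a small inner membrane protein induced by hypoxia, had 2324, 1893 and 1225 in MIC libraries 1, 2 and 3 and 1654, 1115 and 1187 in nonMIC libraries 1, 2 and 3. MIC libraries 1 and 2 were the highest, MIC library 3 lay within the range of the nonMIC libraries, and the groups overlapped. The differences were 0.49, 0.76 and 0.05 with a mean of 0.43 ± 0.30 (SE), 0.23 to 0.69 with 1 library left out and 0.45 after the GC and length adjustment. Higd1a (ENSMUSG00000038412, chr9:121848563-121858362, minus strand) shares 683 of 3040 exonic bases with the antisense gene Gm47112, which had 12 reads over all libraries. Its paralog Higd2a had differences of 0.35, 0.35 and -0.05. Pet100 (0.48, 1.02 and -0.32) was high in pair 2 and below 0 in pair 3, and Coa7, a heme-binding protein of the intermembrane space, had a mean difference of 0.03.

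Complex V, the ATP synthase, had 3 factors with medians of 0.10, 0.29 and -0.06 in pairs 1, 2 and 3, the last at 0.01 with TMM factors. The median of their mean differences, 0.08, turned to -0.07 with the GC and length adjustment, which put pairs 1 and 2 at -0.06 and -0.06. It was -0.02 without MIC library 1 and -0.06 without nonMIC library 2. Tmem70, which assists the ring of c subunits, had the largest mean difference of the 52 members. It had 5506, 5554 and 1265 in MIC libraries 1, 2 and 3 and 2508, 2081 and 1197 in nonMIC libraries 1, 2 and 3. MIC libraries 1 and 2 were more than double any nonMIC library, whereas MIC library 3 was near nonMIC library 3 and below nonMIC libraries 1 and 2, so the groups overlapped. The ratios MIC over nonMIC were 2.19, 2.67 and 1.06 in pairs 1, 2 and 3, and the differences 1.13, 1.42 and 0.08.

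The call of Tmem70 depended on the tool and on the block. limma gave a mean difference of 0.88 ± 0.59 (SE) and an adjusted p of 0.999992 without the block, and ± 0.22 (SE) and an adjusted p of 0.286 with it. With the replicate block on recovered reads, edgeR gave a log2 fold change of 0.88 with an adjusted p of 0.00216, and DESeq2 one of 0.91 with an adjusted p of 0.018. The MIC library was higher in 3 of 3 pairs. Without MIC library 3 limma's difference without the block was 1.59, and without MIC library 2 it was 0.52. Tmem70 (ENSMUSG00000025940, chr1:16665207-16678275, plus strand) shares no exonic bases with another gene, and it was read 5106, 4993 and 1871 times in the MIC libraries and 2370, 1970 and 1707 times in the nonMIC libraries. Atpaf1 and Atpaf2, which chaperone the beta and alpha subunits of the F1 part, had mean differences of 0.08 and -0.09.

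**Figure D2:**
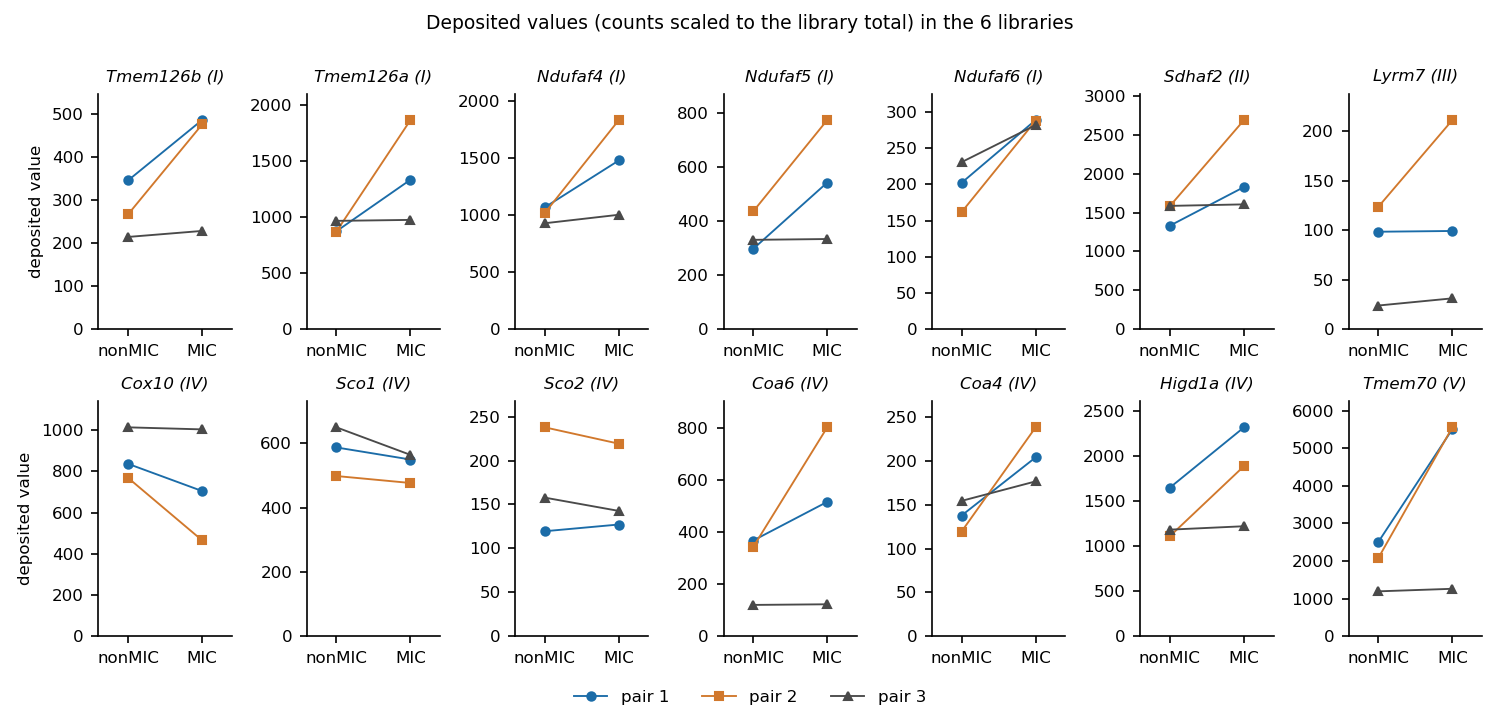
Deposited value (y axis, read counts scaled to the library total, from 0) of the 14 members given in full in the nonMIC and MIC libraries (x axis), with a line joining same-numbered libraries of pair 1 (circles), pair 2 (squares) and pair 3 (triangles) and the complex in brackets. Tmem70 stood at 5506 and 5554 in MIC libraries 1 and 2 and at 1265 in MIC library 3.

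Levels of different genes can be compared only per length. Expressed as RPKM (recovered reads scaled by exonic kilobases and by the library total, mean of 6 libraries), the most abundant factors were Sdhaf4 (15.4) in complex II, Uqcc2 (75.6) in complex III, Higd2a (61.1, with Coa3 at 58.7) in complex IV and Tmem70 (47.4) in complex V. The least abundant were Nubpl (2.01, with Tmem126b at 2.02) in complex I, Sdhaf3 (1.12) in complex II, Lyrm7 (0.554) in complex III, Cox16 (0.911) in complex IV and Atpaf1 (1.37) in complex V. These genes held the same places when the length of the principal transcript was used. By population 2 places changed per exonic length: Coa3 (67.0) was level with Higd2a (66.6) in MICs, and Tmem126b (1.66) was below Nubpl (2.03) in non-MICs. In complex I the highest level depended on the length used, being that of Dmac1 (24.9) per exonic length and that of Tmem126a (41.0) per length of the principal transcript.

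Exonic bases were shared with a gene on the opposite strand by 18 members and with a gene on the same strand by 4 (Acad9, Cox17, Sco2 and Cox16), while 31 members shared none. The libraries kept the strand, but whether counting used it is not given in the sources used here, so reads of a member and of its antisense partner cannot be told apart. The largest shares on the opposite strand besides those already named were in Ndufaf2, with 1955 of 2978 bases shared with B230220B15Rik (12 reads over all libraries), and Pet100, with 941 of 1788 bases shared with Pcp2. On the same strand Acad9 shares 559 of 8192 bases with Gm43079 and Cox17 257 of 5773 with Gm21987.

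The other genes of the chain were read from lists of 81 nuclear subunits, 24 cofactor and import genes and 7 transcripts of mitochondrial DNA in the table. The cofactor and import list also holds Ndufaf8, Apopt1, Cox7a2l, Slirp and Slc25a3, which are not in the list of members. limma called 0 of the 81 subunits in either direction without the block or with it, and edgeR and DESeq2 with the block called 0. The same tests called 0 of the 24 cofactor and import genes and 0 of the 7 mitochondrial transcripts. The matching shares of all genes were 0.0% (limma, no block), 0.13% (limma, block), 1.41% in edgeR and 0.889% in DESeq2. At an unadjusted p under 0.05 limma with the block held 26 subunits as higher in MICs and 0 as lower, against 5.24% and 5.97% of all genes, edgeR held 27 and 0 and DESeq2 32 and 0. Without the block limma held 2 subunits as higher and 0 as lower at that threshold, against 1.44% of all genes in either direction. The median difference of the subunits was 0.47, 0.59 and -0.02 in pairs 1, 2 and 3, the last at 0.05 with TMM factors. A MIC library was higher in all 3 pairs for 26 of them (32.1%, against 12.5% of all genes). It was lower in all 3 for 0 (against 18.8%). Ndufs5 is among the 26, with only 7 reads in MIC library 3 and 4 in nonMIC library 3. Cox4i2, Cox6a2 and Cox6b2, also in the list, had at most 3, 2 and 12 reads in a library. With the GC and length adjustment the medians of the subunits were 0.23, 0.28 and 0.01, and the median of their mean differences was 0.15. The counts were then 22 and 5, against 3096 and 4322 of all 22310 genes. As deposited, the assembly factors had smaller medians in pairs 1 and 2 (0.31 and 0.43) than the subunits (0.47 and 0.59). The difference between the lists was not tested. By complex, the subunits had median mean differences of 0.30 (I, 36 genes), 0.12 (II, 4), 0.36 (III, 9), 0.39 (IV, 15) and 0.34 (V, 17), against 0.20, 0.31, 0.18, 0.13 and 0.08 for the assembly factors of the same complexes, and with the GC and length adjustment 0.16, 0.10, 0.17, 0.09 and 0.16 against 0.08, 0.14, 0.10, -0.01 and -0.07.

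Ndufs4, an accessory subunit of complex I, and Sdhd, a membrane anchor of complex II, had the smallest p of limma with the block among these genes for a higher level in MICs. In edgeR with the block other genes came before Sdhd (unadjusted p 0.0078), among them Ndufc2 (0.0029). Ndufs4 had 3998, 4484 and 3154 in MIC libraries 1, 2 and 3 and 2477, 1835 and 3118 in nonMIC libraries 1, 2 and 3, and its pair differences were 0.69, 1.29 and 0.02. Sdhd had 7439, 7161 and 5982 in MIC libraries 1, 2 and 3 and 4173, 4572 and 5371 in nonMIC libraries 1, 2 and 3, with differences of 0.83, 0.65 and 0.16. The MIC library was the higher of each pair for both genes. For a lower level the smallest p of limma with the block belonged to Fdxr, the ferredoxin reductase of heme A and iron-sulfur synthesis, with differences of -0.27, -0.68 and -0.29, and Iba57, a late iron-sulfur factor, with -0.43, -0.46 and -0.26. None of these 4 genes passed limma's threshold with or without the block.

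The differences were also set beside exonic length and GC content, which the choice of members did not use. Across the 52 members, the Spearman correlation of exonic length with the difference was -0.30, -0.22 and 0.24 in pairs 1, 2 and 3, and that of GC content -0.03, -0.34 and -0.21. Over 11141 genes above the median level with an annotated length the values were -0.38, -0.10 and -0.03 for length and -0.20, -0.58 and -0.03 for GC content. These are correlations across genes of the same libraries, and genes are not independent replicates. The median exonic length was 2530 bases for the members and 4628 bases for those genes. Between pairs, the differences of the members correlated at 0.60 (Pearson) for pairs 1 and 2, 0.18 for pairs 1 and 3 and 0.06 for pairs 2 and 3, against 0.42, 0.48 and 0.08 over the 11155 genes above the median level.

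Promoters (250 bases before to 50 after the RefSeq gene start, GRCm38.p6) were found for 46 of the 52 members, and Acad9, Ndufaf6, Cox17, Coa6, Cox18 and Tmem70 had no entry. NRF1 is a nuclear factor known to bind promoters of many respiratory genes, and its core GCATGCGC was searched on both strands (GCGCATGC on the other). It was present in 5 of 46 members (10.9%), against 5.04% of 13260 promoters of genes in the table and 3.05% of all 27025 promoters of that length. The 5 were Ndufaf4, Ndufaf5, Ttc19, Cmc2 and Higd1a, of which Ndufaf4, Ndufaf5 and Higd1a are given in full above and Ttc19 had the differences 0.26, 0.41 and -0.10. A match of these letters is a description and not evidence of binding. The match of Ndufaf5 and a further match of Ndufaf4 do not lie before the RefSeq start. The RefSeq start of a gene is not always that of GENCODE: by the GENCODE coordinates the matches of Higd1a and Cmc2 lie inside the gene. Ndufaf4 and Ttc19 have a match before the start in both annotations. The stretch around that match is shown on the strand of the gene, 5′ to 3′, with the match in capitals. In Ndufaf4 the capitals hold overlapping matches of both strands. The stretches lie at chr4:24897940-24898009 (Ndufaf4, plus strand) and chr11:62281412-62281472 (Ttc19, plus strand).
Ndufaf4: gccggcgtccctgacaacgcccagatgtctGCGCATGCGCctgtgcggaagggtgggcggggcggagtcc
Ttc19: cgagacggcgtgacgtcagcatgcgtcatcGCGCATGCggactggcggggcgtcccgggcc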

How the data were processed

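Messenger RNA of sorted PyMT MICs and non-MICs was sequenced as stranded paired-end libraries, 3 per population. The submitters' processing notes name STAR and HTSeq and the build GRCm38, without versions, whereas the methods name other alignment software, and whether counting used the strand is not given in the sources used here, so genes with an antisense partner are uncertain. The deposited signal is gene counts that the authors scaled to a common library total. Division by the smallest step of a library gave whole numbers (tolerance 0.01) for 99.9731% to 99.9955% of its values. These set the counting error only, since reads were not collapsed by molecular identifiers. Symbols came from GENCODE vM21 (22161 of 22310 identifiers; the 149 others stayed in the tests). Reads shared with pseudogenes elsewhere in the genome were not examined.

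limma 3.58.1 (R 4.3.3) was fitted to log2(value + 1) of all 22310 genes with a trend and without a block, with Benjamini-Hochberg adjustment and a threshold of 0.05. Fold changes on this scale understate those of low genes. edgeR 4.0.16 (quasi-likelihood) and DESeq2 1.42.0 used the recovered reads. The limma, edgeR and DESeq2 fits, with and without the block, were also run on simulated counts. Each changed gene had the same fold change in every simulated pair, whereas pair 3 differed from pairs 1 and 2 here. The rescaling by TMM factors, quantile normalization, the GC and length adjustment and the recovery of reads were not simulated. After subtraction of group means, MIC and nonMIC libraries 1, 2 and 3 correlated with their own number at 0.573, 0.668 and 0.746. Correlations with other numbers were between -0.536 and -0.194. Subtracting a mean of 3 libraries pushes these below 0 when those of the own number are above 0, so they add no separate support. The numbers, which come from the sample titles, were taken as pairs, and a fit with the replicate block was made. Tables and figures were made with Python 3.11.15, numpy 2.4.6, pandas 2.3.3 and matplotlib 3.10.9.

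The members and lists were chosen with earlier results of these data known. Every member is named. Values in every library are given for members past the threshold in limma, for up to 4 members per complex with 1 sign in all pairs and the smallest blocked p (1 member where there was none), and for the paralog pairs Sco1 and Sco2, Tmem126a and Tmem126b. Of the other genes of the pathway, the 2 with the smallest p of limma with the block in each direction are named.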

Additional observations from a re-analysis of the deposited data

How the results depend on the processing

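Of the results recomputed under 24 alternatives, the count of genes called by limma moved most. It was 0 without a block and 29 with the replicate block, and edgeR with the block called 315 genes, DESeq2 1 without and 133 with the block. Alternatives chosen after seeing the data called, with the block, 32 genes with TMM factors, 12 after quantile normalization and 52 after the GC and length adjustment, and 0 after that adjustment without the block. The count of assembly factors called was 0 except for 1, Tmem70, in edgeR and in DESeq2 with the replicate block, and the block changed no other call of a member. When libraries or pairs were left out, the all-gene count ranged from 0 to 59 (with the block, 11, 59 and 0 without pairs 1, 2 and 3) and the members' count stayed at 0 in limma, the cause of the range not having been tested. Their median difference ranged from 0.03 without MIC library 2 to 0.38 without MIC library 3, that of complex I from 0.10 to 0.55, and it was between 0.04 and 0.26 under the other alternatives. With libraries left out, Sco2 ranged from -0.29 to 0.20 and Lyrm7 from -0.34 to 1.11, and both changed sign (Sco2 to 0.10, 0.20 and 0.02, Lyrm7 to -0.25 and -0.34), for a cause that was not tested; the other 12 members given in full kept the direction of their mean under all alternatives but not its size. The GC and length adjustment took Ndufaf4 from 0.48 to 0.21, Ndufaf5 from 0.57 to 0.29, Tmem126a from 0.57 to 0.29, Tmem126b from 0.47 to 0.26, Ndufaf6 from 0.54 to 0.34, Coa6 from 0.58 to 0.21 and Sco1 from -0.12 to -0.31. Without MIC library 2, Cox10 went from -0.33 to -0.04, Sdhaf2 from 0.41 to 0.20 and Coa6 to 0.03, and without MIC library 3 Coa6 was at 1.37. Lyrm7 was left out by the filter on genes above the median level. Counting error limits Lyrm7, at 34 reads in its lowest library.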

Other observations

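The 82 cytosolic ribosomal protein genes had medians of 0.47, 0.59 and -0.07 in pairs 1, 2 and 3, and the 77 mitochondrial ones 0.34, 0.36 and -0.07, the last at 0.02 after quantile normalization. With the GC and length adjustment the medians in pairs 1 and 2 were 0.25 and 0.42 for the cytosolic and 0.19 and 0.17 for the mitochondrial ones. limma with the replicate block had an unadjusted p under 0.05 for 14 of the former (all higher in MICs), and for 10 higher and 1 lower of the latter, against 5.24% of all genes as higher and 5.97% as lower. edgeR and DESeq2 with the block had 24 and 38 of the cytosolic and 12 and 16 of the mitochondrial ones, all higher, against 5.89% and 5.12% of all genes as higher. With the block, edgeR called 1 of the 82 cytosolic ribosomal protein genes, against 1.41% of all genes. limma and DESeq2 with the block called 0 of them, against 0.13% and 0.889% of all genes. The 24 cofactor and import genes had medians of 0.13, 0.14 and -0.11. A MIC library was higher in all 3 pairs for 2 (8.33%, against 12.5% of all genes). It was lower in all 3 for 5 (20.8%, against 18.8%). Those counts were 6 and 5 with TMM factors, against 3284 and 3668 of all 22310 genes. After quantile normalization they were 7 and 6, against 3413 and 3671. With the GC and length adjustment they were 4 and 7, against 3096 and 4322. That adjustment put the medians at 0.06, 0.13 and -0.05.

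Mitochondrially encoded genes, of which 7 were present, had medians of -1.23, 0.94 and -0.44 in pairs 1, 2 and 3, a spread wider than that of the nuclear lists. With the GC and length adjustment the medians in pairs 1 and 2 were -1.85 and -0.25. The genes outside the list whose values over the 6 libraries were most like the mean of the members were Rps13 (Pearson correlation 0.998), Dtymk (0.998), Mrpl14 (0.998), Dynll1 (0.997) and Emc4 (0.997), chosen for their likeness and given as a description. Rps13 stood at 17927, 22172 and 10017 in MIC libraries 1, 2 and 3 and at 13292, 13472 and 11064 in nonMIC libraries 1, 2 and 3.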
